A study of Mus musculus with 8 samples.

Results

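Hand1, Hand2, Twist1 and Twist2, the Hand and Twist genes of the basic helix-loop-helix (bHLH) family, were examined in the heart-forming region of mouse embryos with and without Isl1. The 4 genes were taken from the expression table by symbol, out of 20701 gene symbols, and each had 1 transcript entry. RNA-Seq libraries came from pharyngeal mesoderm and hearts of single C57BL/6 embryos at E8.75 (6 somites). There were 4 Isl1-/- embryos, here called knockout, and 4 wild-type embryos, numbered as in the sample titles. The embryos of both genotypes shared strain, stage and dissected tissue, and the knockout was labelled Isl1-/- with no tissue-specific driver. Isl1 is a LIM-homeodomain factor of second heart field progenitors, and the comparison asked how the Hand and Twist genes stood in heart and pharyngeal tissue without it.

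Hand and Twist proteins bind DNA as dimers, either with the widely expressed E proteins or with each other, at sites called E-boxes with the letters CANNTG. Id proteins, which lack the DNA-contacting basic region, tie up E proteins and so shift the pairing. In the early embryo Hand1 marks extraembryonic and lateral mesoderm and the future left ventricle, Hand2 marks the second heart field, the future right ventricle and the pharyngeal arches, and Twist1 and Twist2 mark head and arch mesenchyme, Twist1 with a role in neural crest and Twist2 in dermis.

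The paralogues are shown here by a stretch of 47 or 48 codons from the part that encodes the bHLH domain, since reads from near-identical stretches could be counted for the wrong gene. The stretch was picked by a shared pattern of residues and need not span the whole domain. In the mm9 genome the genes lie at chr11:57642207-57646320 on the minus strand (Hand1, NM_008213), and on the plus strand at chr8:59799780-59803314 (Hand2, NM_010402), chr12:34642536-34644682 (Twist1, NM_011658) and chr1:93698038-93744605 (Twist2, NM_007855). Each transcript had 2 exons in the GENCODE annotation, and no exon overlapped an exon of another gene. The bHLH-coding stretch lay in exon 1 of every member, at chr11:57644839-57644982 for Hand1, chr8:59801025-59801168 for Hand2, chr12:34643203-34643343 for Twist1 and chr1:93698426-93698566 for Twist2. The coding strand is printed 5′ to 3′ below, with capitals at the bases that differ between Hand1 and Hand2, and between Twist1 and Twist2.
Hand1: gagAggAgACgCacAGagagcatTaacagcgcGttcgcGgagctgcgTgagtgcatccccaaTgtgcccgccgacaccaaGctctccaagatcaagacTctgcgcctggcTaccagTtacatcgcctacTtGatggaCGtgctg
Hand2: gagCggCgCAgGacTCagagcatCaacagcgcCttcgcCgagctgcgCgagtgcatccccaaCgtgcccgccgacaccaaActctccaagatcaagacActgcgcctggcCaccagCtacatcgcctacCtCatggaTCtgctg
Twist1: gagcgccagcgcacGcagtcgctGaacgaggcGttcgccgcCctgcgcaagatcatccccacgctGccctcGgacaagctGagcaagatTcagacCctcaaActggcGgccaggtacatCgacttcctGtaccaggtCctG
Twist2: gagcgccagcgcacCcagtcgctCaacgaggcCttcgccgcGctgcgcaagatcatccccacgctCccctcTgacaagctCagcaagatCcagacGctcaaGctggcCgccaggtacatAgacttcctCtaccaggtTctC

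Hand1 and Hand2 were identical at 124 of 144 bases of the stretch (86.1%), and Twist1 and Twist2 at 126 of 141 bases (89.4%). The 4 Hand to Twist pairs were identical at 63.8% to 68.1% of aligned bases. Over whole transcripts the longest run of identical bases was 17 between Hand1 and Hand2 and 23 between Twist1 and Twist2. The read length was not given in the sources used here, so whether any read fell wholly within such a run is unknown.

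The libraries held 18916452 to 26153039 counted reads. Isl1 itself fell from 17.4 ± 8.98 CPM (reads scaled to a common library size, SD, n = 4) in wild-type to 2.16 ± 0.276 CPM in knockout embryos, with a log2 fold change of -3.00 (edgeR quasi-likelihood test, adjusted p = 0.0041), and no knockout embryo reached the lowest wild-type embryo. Of 14075 genes tested, 137 (0.973%) passed a false discovery rate (FDR) of 0.05 between the genotypes, 122 lower and 15 higher in knockouts. All 8 heart muscle markers examined fell (median log2 fold change -0.90), and their summed level was 2758 to 4056 CPM in wild-type and 1512 to 2212 CPM in knockout embryos. In whole-tissue RNA, fewer cells of a type and less RNA per cell cannot be told apart. The 6 second heart field markers summed to 61.3 to 139.9 CPM in wild-type and 52.2 to 104.6 CPM in knockout embryos, and 2 of them, Isl1 and Nkx2-6, fell. The markers of neural crest, primitive erythroid cells, foregut endoderm, yolk sac endoderm, neural tube and paraxial mesoderm had no gene past the FDR by edgeR or DESeq2, nor any at an unadjusted p under 0.05 by edgeR. Yet all 7 neural crest, 5 primitive erythroid and 5 yolk sac endoderm markers were higher in knockouts, with median log2 fold changes of 0.27, 0.50 and 0.48. DESeq2 put 2 of the neural crest genes at an unadjusted p under 0.05. In foregut endoderm, neural tube and paraxial mesoderm, 4, 5 and 4 of 6 tested genes were higher (medians 0.05, 0.07 and 0.13). Of the 6 endothelial markers none passed the FDR by edgeR or DESeq2 either, but 5 were lower in knockouts (median -0.20), with Emcn at -0.42 and an unadjusted edgeR p of 0.0277. By its label, knockout embryo 2 was a total RNA sample, where polyA RNA was given for the remaining 7. Y-linked reads were present in wild-type embryo 4 and knockout embryos 1, 3 and 4, at 276 to 299.6 CPM in sum, and near absent in the other 4 embryos.

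All 4 members were detected in every embryo, but at unlike levels. Per kilobase of transcript (RPKM), wild-type embryos held 29.1 ± 14.9 of Hand1, 28.6 ± 2.80 of Twist1, 12.2 ± 1.90 of Hand2 and 2.86 ± 0.593 of Twist2 (SD, n = 4). In knockout embryos the levels were 28.8 ± 15.7, 29.8 ± 7.54, 9.26 ± 1.19 and 3.61 ± 0.550 RPKM in the same order (SD, n = 4). Twist2 had the lowest level and Hand2 the next lowest in all 8 embryos. Hand1 and Twist1 did not differ beyond their spread, since Twist1 was the higher in 5 embryos and Hand1 in 3. The lowest Hand1 level of any embryo, 16.2 RPKM, was above the highest Hand2 level, 14.2 RPKM, and the lowest Hand2 level, 7.64 RPKM, was above the highest Twist2 level, 4.23 RPKM.

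**Figure D1:**
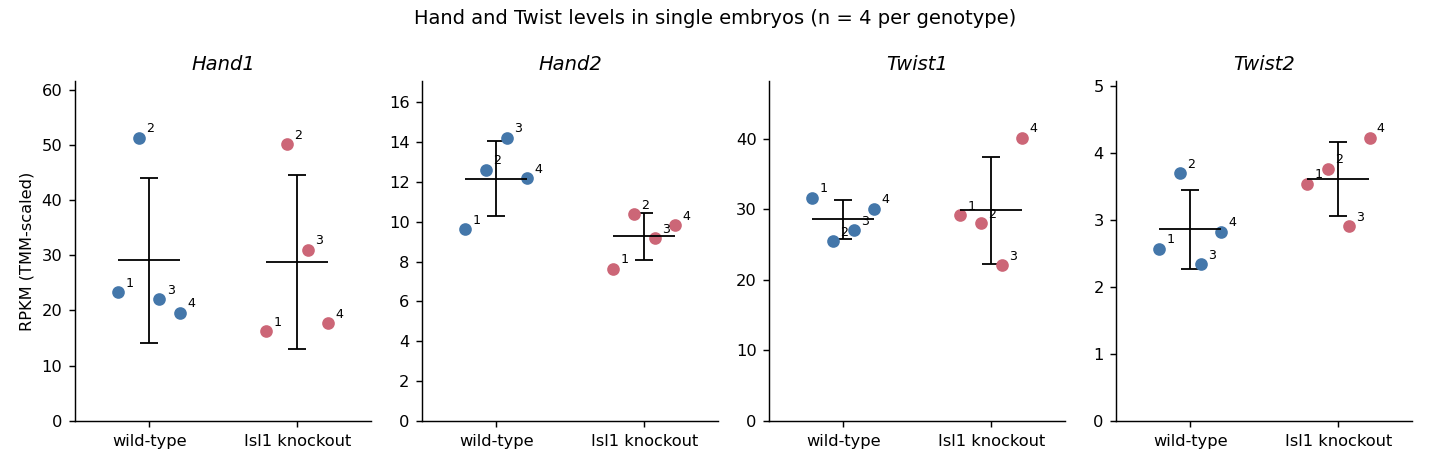
RPKM of each member (vertical axis, starting at 0, with its own scale for each gene) in single wild-type (blue) and Isl1 knockout (red) embryos, numbered by replicate; the long bar is the mean and the whiskers 1 SD (n = 4). The genotypes overlap for every gene, Hand1 stands at 51.3 and 50.1 RPKM in wild-type embryo 2 and knockout embryo 2, and all 4 knockout embryos lie below the wild-type mean of 12.2 for Hand2.

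None of the 4 members passed the FDR between knockout and wild-type embryos, against 0.973% of all genes tested, and none did in any of the 15 alternatives, DESeq2 and limma included. At an unadjusted p under 0.05, which 17.4% of all genes reached, Hand2 was the 1 member below it by edgeR and by DESeq2, and limma put 2 members below it, Hand2 and Twist2. The authors' cutoffs, which they used with DESeq2, ask for a log2 change past 0.58 together with an unadjusted p under 0.05. Applied to the edgeR test used here, they called 3.93% of all genes tested and 0 members. The genotypes did not overlap for 10.3% of all genes tested, and overlapped for all 4 members. With an interval of 95% for each fold change, the data bounded the members' differences to unlike degrees, tightest for Hand2 and widest for Hand1.

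Hand2, required for the right ventricle and for arch mesenchyme, was the member with the lowest p. Its CPM was 21.5, 28.2, 31.7 and 27.2 in wild-type embryos 1 to 4, against 17.0, 23.2, 20.5 and 21.9 in knockout embryos 1 to 4. All 4 knockout embryos lay below the wild-type mean of 27.1 CPM and 2 of them below the lowest wild-type embryo, but knockout embryos 2 and 4 lay above wild-type embryo 1. The knockout mean was 76.1% of the wild-type mean. The log2 fold change was -0.39 (SE 0.14, interval -0.70 to -0.09, edgeR adjusted p = 0.187, unadjusted p = 0.0158). Hand2 was lower in knockouts under all 15 alternatives, and its adjusted p ranged from 0.0936 with DESeq2 to 0.404. Beside Hand2, the summed heart muscle markers did not overlap between genotypes (above). The 6 markers of lateral plate and splanchnic mesoderm summed to 66.9 to 97.6 CPM in wild-type and 47.1 to 62.7 CPM in knockout embryos, with a median log2 fold change of -0.05, and 1 of 5 tested genes, the cardiac and endodermal GATA factor Gata5, fell past the FDR. Without Gata5 the other 5 markers summed to 28.7 to 54.8 CPM in wild-type and 27.8 to 38.7 CPM in knockout embryos, which overlap. The part of either list in the level of Hand2 was not tested.

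Hand1, the paralogue of the left ventricle and extraembryonic mesoderm, had about the same mean in both genotypes and the widest spread of the members. Wild-type embryos 1 to 4 held 44.1, 97.2, 41.8 and 37.2 CPM, and knockout embryos 1 to 4 held 30.8, 94.9, 58.8 and 33.5 CPM. Embryo 2 of each genotype was the highest, and the other 6 embryos ranged from 30.8 to 58.8 CPM. By label, knockout embryo 2 was total RNA and wild-type embryo 2 polyA RNA, and the part of this label was not tested. The highest embryo held 3.16 times the level of the lowest, where Hand2, Twist1 and Twist2 spanned 1.86, 1.82 and 1.81 times. The log2 fold change was -0.01 (SE 0.40, interval -0.91 to 0.88, edgeR adjusted p = 0.989). This interval leaves room for anything from 0.533 to 1.84 times the wild-type level. Its sign is not determined: it turned to 0.41 without wild-type embryo 2, 0.18 without knockout embryo 1 and 0.16 without knockout embryo 4, and moved to -0.42 without knockout embryo 2.

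Hand1 varied more between embryos of a genotype than most genes did. Its within-genotype SD was 0.69 on the log2(CPM + 1) scale, larger than that of 98.1% of tested genes. Among the 5408 genes with a mean of 20 to 100 CPM, 99.0% had a smaller SD than Hand1, 92.6% a smaller SD than Twist1 and 83.9% a smaller SD than Hand2. The median SD of those genes was 0.13, against 0.26 for Twist1 and 0.21 for Hand2. Twist2, counted with 74 to 122 reads, had an SD of 0.21. Counting error at its median count would give an SD of 0.14 on the log2 scale of counts. That scale has no added 1, so the 2 values do not compare directly. Hand1 was high in both genotypes alike, with a coefficient of variation of 51.2% in wild-type and 54.6% in knockout embryos, where that of Hand2 was 15.6% and 12.8%.

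Other measures varied between embryos as well. Both embryos with Hand1 above 90 CPM lacked Y-linked reads, and so did wild-type embryos 1 and 3, at 44.1 and 41.8 CPM. With only 1 knockout embryo lacking these reads and 1 wild-type embryo carrying them, the genotypes could not be compared within either kind of embryo, and a fit with the Y-linked level as a term gave Hand1 a log2 fold change of 0.40 (edgeR adjusted p = 0.622). In the same fit Hand2 was at -0.34 (adjusted p = 0.404). The 5 yolk sac endoderm markers summed to 945, 1770, 3097 and 349 CPM over the wild-type embryos in order, and to 269, 4552, 3120 and 469 CPM over the knockout embryos. The 3 embryos with the most Hand1, wild-type embryo 2 and knockout embryos 2 and 3, were among the 4 with the most of these transcripts, and the 3 with the least Hand1, wild-type embryo 4 and knockout embryos 1 and 4, were the 3 with the fewest. Wild-type embryo 3 had 3097 CPM of them with 41.8 CPM of Hand1. The lateral plate and splanchnic mesoderm markers without Gata5 varied too. They summed to 28.7, 54.8, 34.3 and 39.7 CPM over the wild-type embryos in order. Over the knockout embryos they summed to 27.8, 38.7, 38.2 and 32.5 CPM. The part of either tissue in the level of Hand1 was not tested.

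Twist1, a regulator of mesenchyme, had closely grouped levels in wild-type embryos and scattered ones in knockouts. The 4 wild-type embryos, in order, had 51.5, 41.5, 44.0 and 49.0 CPM, and the 4 knockout embryos had 47.4, 45.5, 35.9 and 65.3 CPM. Knockout embryo 3 lay below and knockout embryo 4 above every wild-type embryo. The coefficient of variation was 9.81% in wild-type and 25.3% in knockout embryos, a difference in spread that was not tested. The log2 fold change was 0.06 (SE 0.16, interval -0.30 to 0.42, edgeR adjusted p = 0.868), and without knockout embryo 4 it was -0.11.

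Twist2, the paralogue of dermal and osteoblast precursors, was the member with the fewest reads. Wild-type embryos had, in order, 3.42, 4.92, 3.12 and 3.76 CPM, where knockout embryos had 4.72, 5.02, 3.87 and 5.63 CPM. All 4 knockout embryos were above the wild-type mean of 3.81 CPM, and 2 were above the highest wild-type embryo, but the groups overlapped through wild-type embryo 2. The log2 fold change was 0.34 (SE 0.19, interval -0.08 to 0.75, edgeR adjusted p = 0.382). It was positive under all 15 alternatives, from 0.25 to 0.48. The unadjusted p was 0.099, and was under 0.05 with limma (0.0385, limma adjusted p = 0.254) and in edgeR without wild-type embryo 2 (0.0253, edgeR adjusted p = 0.288).

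Ratios between members within an embryo do not depend on how libraries are scaled, and were compared by an exact two-sided permutation test over 8 embryos, for which the smallest possible p is 0.0286. The RPKM ratio of Hand1 to Hand2 was 2.42, 4.06, 1.55 and 1.61 in wild-type and 2.13, 4.82, 3.38 and 1.80 in knockout embryos 1 to 4. Hand1 thus exceeded Hand2 in every embryo, by a factor that ranged from 1.55 to 4.82 and overlapped between genotypes. The mean log2 ratio was 1.15 ± 0.65 in wild-type and 1.49 ± 0.65 in knockout embryos (SD, n = 4), and the exact permutation p was 0.486 before and after adjustment over the 3 ratios.

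The ratio of Twist1 to Twist2 was 12.3, 6.90, 11.5 and 10.6 in wild-type and 8.23, 7.43, 7.60 and 9.50 in knockout embryos 1 to 4. The 4 knockout embryos lay between wild-type embryo 2 and the other 3 wild-type embryos. Mean log2 ratios were 3.34 ± 0.38 and 3.03 ± 0.16 (SD, n = 4, exact permutation p = 0.171, adjusted p = 0.257). The ratio of Hand2 to Twist1, which share the arch mesenchyme, was 0.304, 0.495, 0.526 and 0.405 in wild-type and 0.262, 0.371, 0.416 and 0.245 in knockout embryos 1 to 4. Every knockout embryo was below the wild-type mean on the log2 scale, at -1.66 ± 0.37 against -1.24 ± 0.36 (SD, n = 4, exact permutation p = 0.171, adjusted p = 0.257). The groups overlapped, since knockout embryos 2 and 3 were above wild-type embryo 1 and knockout embryo 3 was also above wild-type embryo 4.

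**Figure D2:**
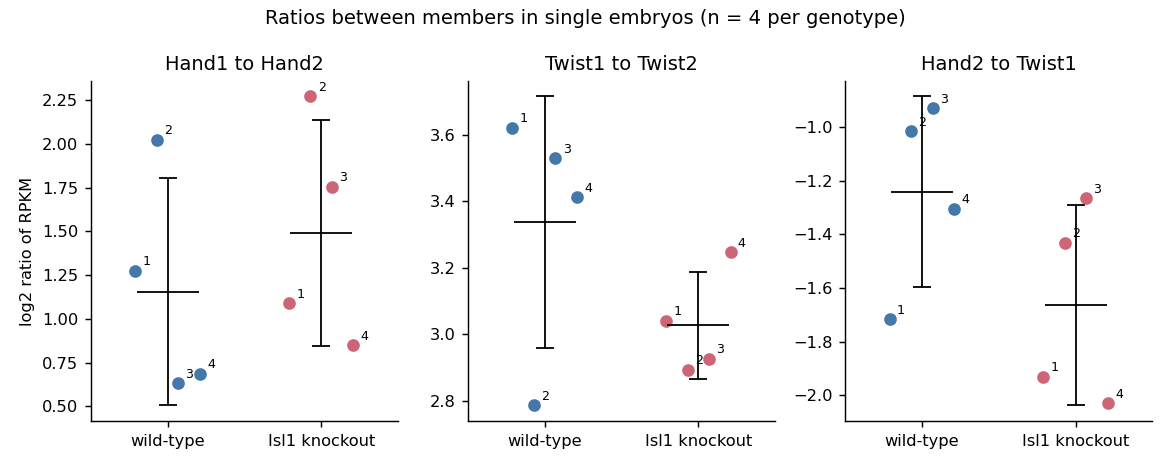
The log2 ratio of RPKM between pairs of members (vertical axes, with separate scales that do not start at 0) in single wild-type (blue) and Isl1 knockout (red) embryos, numbered by replicate, with mean and 1 SD (n = 4). The groups overlap in each panel, and the wild-type and knockout means are 3.34 and 3.03 for Twist1 to Twist2 and -1.24 and -1.66 for Hand2 to Twist1.

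Whether the members moved together from embryo to embryo was tested next, and no pair passed. Deviations from the genotype mean on the log2(CPM + 1) scale were correlated for the 6 pairs, with exact permutation within genotypes. The largest in size was that of Hand1 and Twist1 (Pearson's r = -0.54, exact permutation p = 0.210, Spearman's rho = -0.57, exact permutation p = 0.215, n = 8). After adjustment over the 6 pairs these were p = 0.698 for r and p = 0.817 for rho by the exact permutation, and r was -0.71 without wild-type embryo 2 and knockout embryo 2. Hand1 and Hand2 gave r = 0.38 (rho = 0.24, exact permutation p = 0.358 for r and 0.569 for rho), which dropped to 0.11 without those embryos. Twist1 and Twist2 gave r = 0.41 (rho = 0.29, exact permutation p = 0.332 for r and 0.531 for rho), which turned to -0.54 without knockout embryos 3 and 4. No adjusted p of the 6 pairs was below 0.698 for r or 0.817 for rho in these exact permutation tests.

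The genes whose levels over the 8 embryos were most like each member were looked up among 11042 to 11043 genes with a mean of at least 5 CPM, by Pearson's r of log2(CPM + 1). All the values share the same 8 libraries, so these are descriptions. Hand1 was followed by the membrane protein genes Pmp22 (r = 0.99), Emp2 (r = 0.98) and Tmem88 (r = 0.97), each of which was also highest in the embryos numbered 2. Pmp22, a myelin protein also made outside nerve, stood at 115 CPM in wild-type embryo 2 and 118 CPM in knockout embryo 2, and at 53.0 to 86.8 CPM elsewhere. Hand2 was followed by Prkca, a protein kinase C (r = 0.94), Itgav, an integrin subunit (r = 0.94), and Kitl, the ligand of the Kit receptor (r = 0.94). Kitl was 62.2 to 73.3 CPM in wild-type and 43.5 to 57.6 CPM in knockout embryos, at an edgeR adjusted p of 0.0863. Its groups did not overlap, which held for 10.3% of all genes tested. The match was made over both genotypes, so any difference between genotypes in Hand2 entered it. The values of Kitl are thus no separate result. Twist1 was followed by Fign (r = 0.96), Zbtb44 (r = 0.96) and Kansl1 (r = 0.95), which shared its high level in knockout embryo 4 and its low level in knockout embryo 3. Twist2 was followed by Lyrm5 (r = 0.97), Cpne3 (r = 0.94) and Wnt6, a Wnt ligand of ectoderm (r = 0.94). Lyrm5 moved little, between 16.1 and 18.0 CPM.

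**Figure D3:**
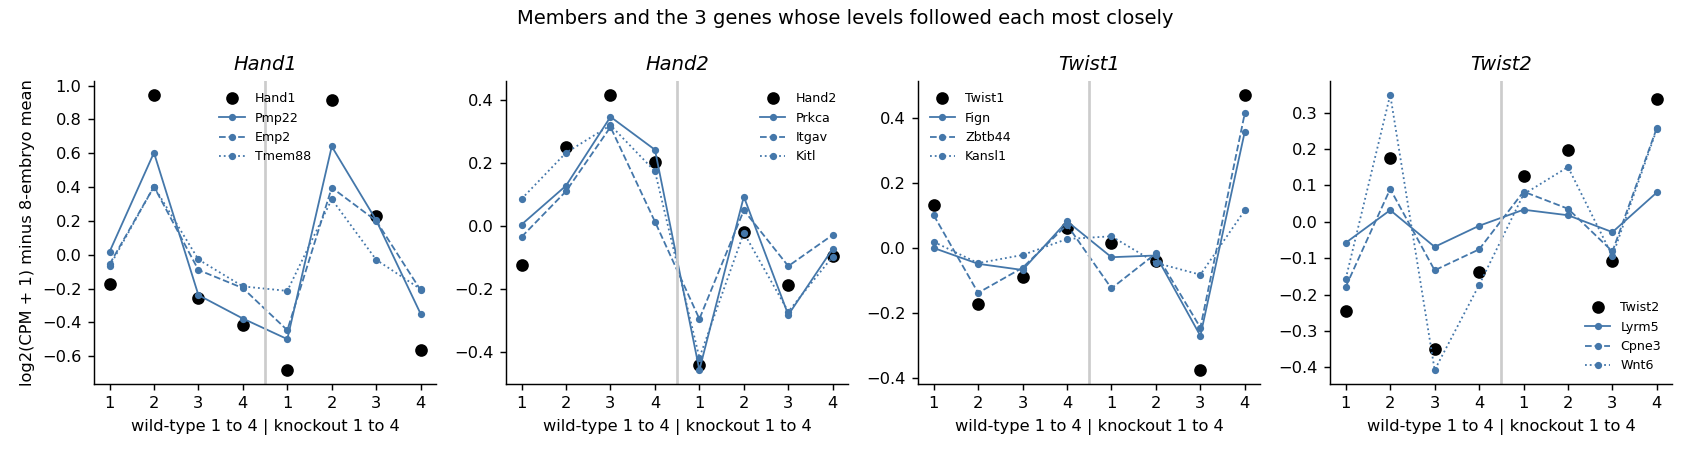
Level of each member (black points) and of the 3 genes most like it (blue lines) in wild-type embryos 1 to 4 (left of the grey line) and knockout embryos 1 to 4 (right), as log2(CPM + 1) minus the mean of the 8 embryos, with a separate scale for each member. Hand1 and its 3 genes peak in embryo 2 of both genotypes, and Twist1 and its genes peak in knockout embryo 4.

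Genes that act with or upstream of the members were examined as 7 lists, together 65 tested genes, of which 5 fell and 0 rose past the FDR. The median log2 fold change was -0.0029 over these genes and 0.0063 over all genes tested. The dimer partners showed little difference. Of the 3 E protein genes, Tcf3, Tcf4 and Tcf12, none passed the FDR by edgeR or DESeq2 and none had an unadjusted p under 0.05, with log2 fold changes of -0.01 to 0.06. Tcf4, with the lowest p, was 91.1 ± 5.76 CPM in wild-type and 95.2 ± 10.6 CPM in knockout embryos (SD, n = 4).

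Each of the 4 Id genes had a lower mean in knockouts, with a median log2 fold change of -0.33, but none passed the FDR by edgeR, while 2 had an unadjusted p under 0.05. Id2 was 281, 329, 226 and 240 CPM in wild-type and 209, 218, 212 and 197 CPM in knockout embryos 1 to 4. The groups did not overlap, at a log2 fold change of -0.37 (SE 0.11, edgeR adjusted p = 0.137). DESeq2 called Id2 lower, with an adjusted p of 0.0337, and so did edgeR without wild-type embryo 3 (adjusted p = 0.0454). Among genes for the kinase and phosphatase subunits that act on Hand and Twist dimer choice, and the Hand cofactor Fhl2, 0 of 5 passed the FDR by edgeR. Fhl2 was 20.8 ± 1.53 CPM in wild-type and 15.2 ± 1.61 CPM in knockout embryos (SD, n = 4), which gave a log2 fold change of -0.45 with an edgeR adjusted p of 0.0814 and a DESeq2 adjusted p of 0.0046.

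Other bHLH factors of mesoderm, such as the somite factor Tcf15 and the tendon factor Scx, gave 0 calls among 9 tested genes by edgeR and by DESeq2, with 1 at an unadjusted p under 0.05 by edgeR. That gene was Ferd3l, also called Nato3, which is the nearest protein-coding gene to Twist1, 28361 bases away in mm9. It was barely detected, at 0.355 to 1.08 CPM in wild-type and 0.953 to 1.46 CPM in knockout embryos, with a log2 fold change of 0.76 (SE 0.34, edgeR adjusted p = 0.286). A further 7 genes of the list, among them Mesp1 and Myod1, were below the filter on low counts.

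Among genes known to act upstream of Hand1 or Hand2, 4 of 15 tested fell and 0 rose past the FDR. Nkx2-5, the cardiac homeobox factor, had 25.4 ± 2.97 CPM in wild-type and 9.58 ± 1.35 CPM in knockout embryos (SD, n = 4), and its log2 fold change was -1.40 (edgeR adjusted p = 0.0019). Smyd1, a muscle histone methyltransferase needed for Hand2 expression in the heart, had 91.9 ± 6.67 CPM in wild-type and 42.1 ± 3.85 CPM in knockout embryos (SD, n = 4), and its log2 fold change was -1.13 (edgeR adjusted p = 0.0017). Mef2c, a MADS-box factor that takes part in both heart and endothelin programs, fell by 0.73 on the log2 scale (edgeR adjusted p = 0.0098) and Gata6 by 0.69 (edgeR adjusted p = 0.0278). For Gata6 the adjusted p reached 0.05 or more in 8 of 15 alternatives, up to 0.116.

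The endothelin arm, which drives Hand2 in the arches, did not pass the test. The ligand gene Edn1 had a log2 fold change of 0.23, its receptor gene Ednra 0.18, and the converting enzyme gene Ece1 0.06. The arch homeobox genes Dlx3, Dlx5 and Dlx6 were at 0.74, 0.33 and 0.34. The edgeR adjusted p-values of these 6 genes were 0.149 to 0.852. Other genes of the same list were lower in knockouts, Gnaq at -0.13, Gna11 at -0.08, Bmp2 at -0.23 and Bmp4 at -0.25. Their edgeR adjusted p-values were 0.459 to 0.659. DESeq2 added Dlx3, higher, and Gata4, lower, to the 4 called genes. The 95% interval of Nkx2-5 (-1.69 to -1.11) lay wholly below that of Hand2 (-0.70 to -0.09), while that of Gata6 (-0.96 to -0.42) overlapped it.

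Chamber myocardium genes, several of them outer-curvature genes studied with Hand1, gave 1 call lower among 9 tested genes by edgeR and 4 by DESeq2. Smpx, a small muscle protein, was 14.9 ± 3.24 CPM in wild-type and 6.38 ± 0.892 CPM in knockout embryos (SD, n = 4), which gave a log2 fold change of -1.22 (edgeR adjusted p = 0.0113). Its adjusted p was 0.0527 without wild-type embryo 1 and 0.0569 without knockout embryo 4. The list median was -0.60, and 6 of the 9 genes had an unadjusted p under 0.05, all lower. Heart muscle markers moved with this list, as given above, and their part in it was not tested.

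Mesenchyme genes known with Twist1, such as Snai1, Prrx1, Msx1 and Pdgfra, gave 0 calls among 20 tested genes by edgeR. The list median was 0.10, with 15 of 20 higher in knockouts. The list also held Cdh1, an epithelial cadherin gene, counted among the 15 at 0.16 (edgeR adjusted p = 0.724). Snai2, the zinc-finger factor of mesenchymal transition, had the lowest p. It was 11.5, 11.4, 12.9 and 12.2 CPM in wild-type and 14.4, 19.3, 14.4 and 18.7 CPM in knockout embryos 1 to 4, so the groups did not overlap. The log2 fold change was 0.48 (SE 0.13, edgeR adjusted p = 0.103, DESeq2 adjusted p = 0.0178). The 7 neural crest markers, which share cells with this list, summed to 523 to 703 CPM in wild-type and 699 to 861 CPM in knockout embryos, and their part in the level of Snai2 was not tested.

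**Figure D4:**
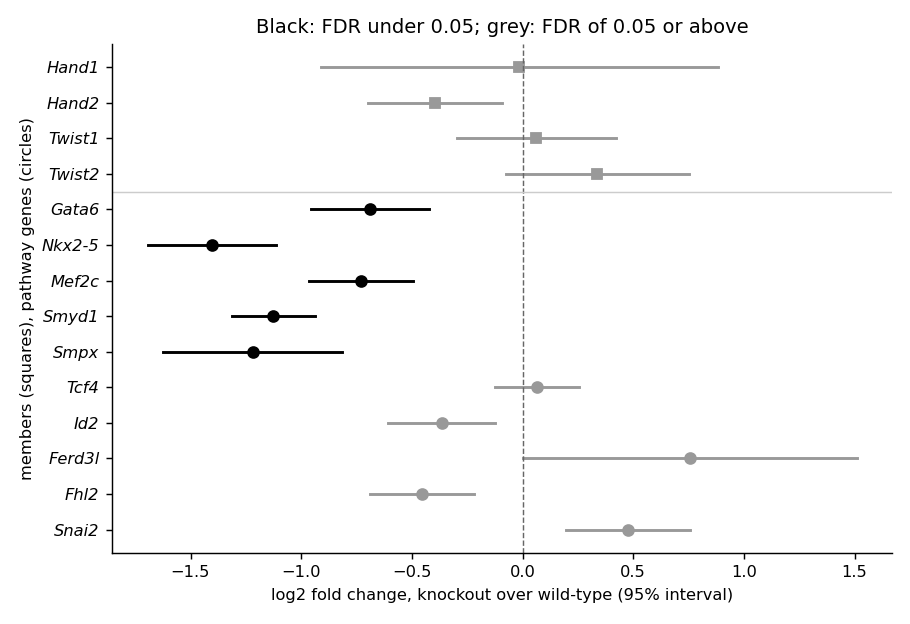
Log2 fold change of knockout over wild-type (horizontal axis) with its 95% interval for the 4 members (squares) and the named pathway genes (circles), black where the FDR was under 0.05 and grey otherwise. The members are grey, from -0.39 for Hand2 to 0.34 for Twist2, while Nkx2-5 stands at -1.40 and Smyd1 at -1.13.

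**Figure D5:**
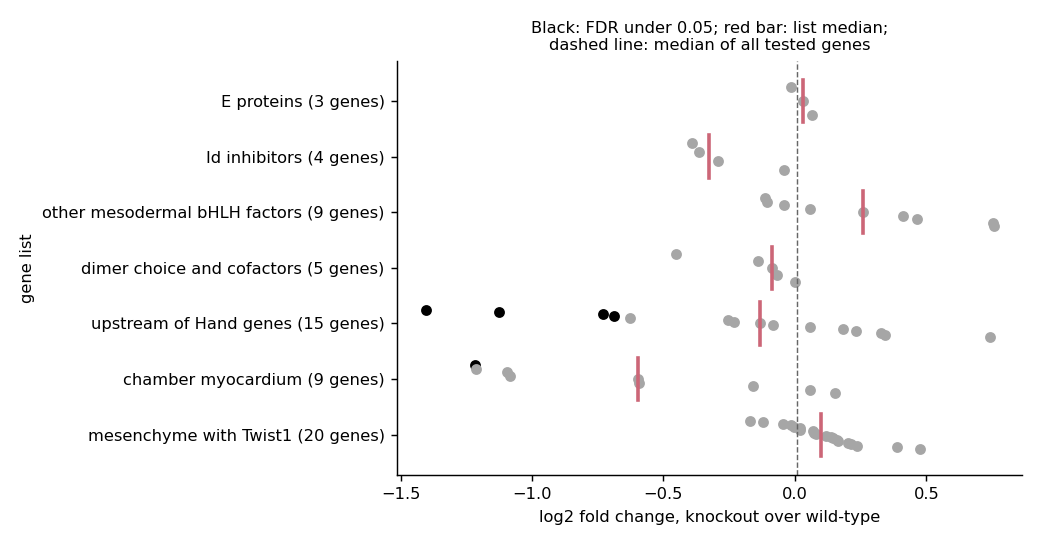
Log2 fold change of knockout over wild-type (horizontal axis) for every tested gene of the 7 pathway lists (1 point a gene, black where the FDR was under 0.05), with the list median as a red bar and the median of all tested genes, 0.0063, as a dashed line. Black points occur in 2 lists, 4 upstream of the Hand genes and 1 in chamber myocardium.

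Promoter sequence was available for 3 of the members in RefSeq (GRCm38.p6), and for Hand1 none was matched. In the 250 bases before the start, on both strands, the E-box CANNTG occurred 2 times in Hand2 and 0 times in Twist1 and Twist2, where 66.2% of 32851 promoters of this length held at least 1. The letters TAAT, a core that homeodomain proteins contact, occurred 5 times in Hand2, 0 times in Twist1 and 1 time in Twist2, against 54.9% of promoters with at least 1, with overlapping matches each counted. The Hand2 promoter is shown because Hand2 was the member with the lowest p and the one with E-boxes, with these in capitals, at chr8:57320733-57320982 on the plus strand of GRCm38.p6. A match describes letters in this window, not a bound site.
Hand2 promoter: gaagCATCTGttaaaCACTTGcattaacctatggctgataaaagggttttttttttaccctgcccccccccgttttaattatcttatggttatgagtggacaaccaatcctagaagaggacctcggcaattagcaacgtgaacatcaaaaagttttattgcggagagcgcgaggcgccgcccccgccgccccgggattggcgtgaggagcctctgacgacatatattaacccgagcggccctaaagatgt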

How the data were processed

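RNA-Seq was analysed from 4 Isl1-/- and 4 wild-type embryos, 1 embryo per library, with groups and numbers from the sample titles. Per the study's methods, the authors mapped reads to mm9 with STAR and counted them over RefSeq exons on both strands with HOMER; versions and read length are not given in the sources used here. The deposited count columns held raw read counts per transcript. The authors made the deposited RPKM columns with edgeR from those counts; recomputed values differed by at most 0.000492. Deposited transcript lengths are in bases. The deposited fold changes, standard errors, test statistics and p-values were the authors' own DESeq2 comparison and were not used.

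The table held 31507 entries of 20701 symbols. For each symbol the entry with the highest summed count was kept. Counts were fitted in edgeR 4.0.16 (R 4.3.3) after filterByExpr and TMM scaling, with genotype as the only term, by the two-sided quasi-likelihood test, with Benjamini-Hochberg adjustment over 14075 genes at 0.05. CPM and RPKM in the text are TMM-scaled. Intervals and replicate spread cover these 8 embryos, and counting precision covers counting error only, since no molecular identifiers were described. Gene counts of replicates differed by more than sampling noise (chi-square per degree of freedom of 7.86 to 40.0). Ratios were compared by exact permutation in scipy 1.17.1. The fitting code was tested on simulated data. Alternatives were RLE scaling, DESeq2 1.42.0, limma 3.58.1 on log2(RPKM + 1), no filter, a replicate block, a Y-linked covariate, the entry with the highest mean RPKM, a pseudocount of 1 for ratios, and leaving out each embryo.

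Named genes were the members, Isl1, each pathway-list gene past the FDR, the lowest-p gene of each list, and the 3 genes most like each member; the others were named after their values were seen. Members and lists were chosen with earlier results of these data known. Gene positions were taken from GENCODE vM1 on mm9 and promoters from RefSeq on GRCm38.p6. Hand2os1 was in a list and was not analysed here.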

Additional observations from a re-analysis of the deposited data

Results flagged for a closer look

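A sample that stood far from the rest of its group was looked for in 36 groups of 4 embryos, by the size of its gap relative to the range of the group, and 3 groups met the criterion. Chance alone flags about 1 group in 20.

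Hand1 in wild-type embryos met it, with embryo 2 at 97.2 CPM and the other 3 at 37.2 to 44.1 CPM. Knockout embryo 2, at 94.9 CPM, did not meet it because knockout embryo 3, at 58.8 CPM, lay between. Gata6 in wild-type embryos met it with embryo 2 at 85.8 CPM, the others being at 60.0 to 61.5 CPM. Ferd3l in knockout embryos met it with embryo 2 at 0.953 CPM, the others being at 1.39 to 1.46 CPM.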

How the results depend on the processing

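Hand2, Twist2 and the 3 ratios kept their direction and stayed on the same side of the threshold in every alternative run, 15 for each gene and 11 for each ratio. Hand1 changed sign with no filter on low counts (0.0081), with the Y-linked covariate (0.40) and with limma (0.0064), and ranged from -0.42 to 0.41 as each embryo was left out; Twist1 ranged from -0.11 to 0.18. Leaving out each embryo gave Hand2 -0.49 to -0.31, Twist2 0.25 to 0.48 and Isl1 -3.20 to -2.72. Tcf4 turned to -0.0013 with the Y-linked covariate and ranged from -0.011 to 0.12 as each embryo was left out. The count of all genes past the FDR was 712 with DESeq2, 76 with the replicate block and 70 to 490 as each embryo was left out, the 490 without wild-type embryo 3, and 73, 85, 85, 81 and 70 without wild-type embryos 1, 2 and 4 and knockout embryos 1 and 4. The count in the pathway lists was 13 with DESeq2 and 3 to 10 as each embryo was left out, 10 without wild-type embryo 3 and 3 without wild-type embryo 1 or knockout embryo 4. The cause of these changes was not tested. Deviations of same-numbered embryos of the 2 genotypes were all positively correlated, but unevenly (r of 0.12, 0.20, 0.04 and 0.56). Not every embryo correlated best with its own number. Whether the numbers pair the embryos cannot be told from these few values. With the replicate block the log2 fold changes were -0.05 for Hand1, -0.39 for Hand2, 0.04 for Twist1 and 0.34 for Twist2, and no member's call changed. The exact tests of the ratios could not pass 0.05 with an embryo left out, where the smallest p is 0.0571, or as pairs, where it is 0.125. Depth limits Twist2 most, at 74 to 122 reads.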
